A study of Drosophila melanogaster with 20 samples.

Results

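The maltase genes of the fruit fly Drosophila melanogaster were followed across control larvae and 3 lines in which the transporter that carries S-adenosylmethionine (SAM) into mitochondria is altered. The 10 genes Mal-A1 to Mal-A8, Mal-B1 and Mal-B2 were chosen by symbol among the 14081 genes of the deposited tables, and all 10 were found. Each group had 5 RNA libraries of whole larvae, which were 4 days old and raised at 25 °C, and ribosomal RNA had been removed. The control, labelled only as control, had the wDah background, which all groups shared. The line here called I172G (genotype DmSAMC.I172G) is named a mild mutant in the labels, P223L (DmSAMC.P223L) a severe mutant, and SAMC-null (DnSAMC.M1fs;M39*) a severe null mutant. The labels of every library, controls included, give a yeast, sugar and agar medium in the proportions 10-5-1. Each mutant genotype is represented by 1 line, and what the altered carrier does and what else sets a line apart cannot be told apart. Separate cultures for the libraries of a group are not stated in the labels, so p-values measure only the spread between these libraries.

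Maltases are alpha-glucosidases. In insects they are made mainly by the midgut, where they split maltose, sucrose and related sugars at the surface of the gut lining after amylases have cut starch into shorter chains, and transporters then take up the glucose that is released. In flies the transcripts of these carbohydrases are known to be repressed by sugar in the diet, in part through the Activin ligand Dawdle. Mal-A1, Mal-A2 and Mal-A3 were earlier named larval visceral proteins H, D and L.

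The 8 Mal-A genes lie side by side in 24.3 kb of chromosome arm 2R (8449664 to 8473961, BDGP 6.54), 5 on the plus strand and 3 on the minus strand. Mal-B1 (FBgn0032381, 11847226 to 11849169) and Mal-B2 (FBgn0032382, 11849958 to 11852881) lie on the plus strand of 2L, 788 bases apart. No annotated gene lies wholly between the members of the Mal-A cluster apart from mobile element remnants. Mal-A1 shares 82 exonic bases with Cyp4e1 and Mal-A8 shares 6 with mtt, both on the opposite strand. Mal-B1 and Mal-B2 sit inside the gene Pde1c, on the strand opposite to it, and share no exonic base with it. Whether the libraries kept strand is not given in the sources used here, so reads of overlapping stretches cannot be assigned to a strand.

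The values are the authors' normalised read counts, whose sums per library ranged from 22092107 to 36610401, with all SAMC-null and P223L libraries below all libraries of the other groups. Differences were tested with limma on log2(value + 1) across all genes, with Benjamini-Hochberg adjustment, and a gene is called where the adjusted p is under 0.05. Every log2 fold change is on that scale, where the added 1 weighs most on weakly expressed genes such as Mal-A7. For Mal-A7 against control, this scale gave larger values than the authors' deposited log2 fold changes. The pairs were 1.7 and 1.64 for the I172G line, 2.11 and 1.93 for the P223L line, and 3.67 and 3.49 for SAMC-null. The authors' scaling left the median log2 fold change of all genes at -0.03 in I172G and at -0.06 in each severe line against control. Rescaling all libraries to equal totals moved that median by 0.42 in P223L and 0.61 in SAMC-null, and the maltase calls that this ended or turned are given beside them. The SAM carrier gene CG4743 ranged from 93.5 to 149 normalised counts for control, 144 to 199 for the I172G line, 184 to 249 for the P223L line and 90.4 to 121 for SAMC-null. Its level does not check labels that name point mutations or a frameshift.

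In control larvae the maltase transcripts spanned a wide range of levels. Per kilobase of exon, Mal-A3 was at 15355 ± 3351 normalised counts, Mal-A4 at 8205 ± 1913, Mal-A1 at 4927 ± 558 and Mal-A6 at 4013 ± 722 (SD, n = 5). Mal-A5 followed at 1972 ± 188 and Mal-A2 at 1027 ± 202. Below these came Mal-B2 at 265 ± 52.6, Mal-A8 at 91.2 ± 34.5, Mal-B1 at 20.5 ± 4.51 and Mal-A7 at 2.95 ± 1.97. The library ranges of neighbours in this order overlapped for Mal-A3 and Mal-A4 and for Mal-A1 and Mal-A6, and lay apart for all other neighbours.

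The summed normalised counts of the 10 genes were 67471 ± 10461 for control, 29783 ± 2015 for the I172G line, 23090.4 ± 2302 for the P223L line and 27916 ± 891 for SAMC-null (SD, n = 5). These sums held 0.198 ± 0.0292% of a control library, 0.0858 ± 0.00524% of an I172G library, 0.0904 ± 0.00945% of a P223L library and 0.125 ± 0.00384% of a SAMC-null library. The lowest control library, replicate 4 at 49982, still stood above the highest mutant library, I172G replicate 2 at 32519. In bulk RNA of whole larvae, fewer midgut cells and less maltase RNA per cell cannot be told apart.

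**Figure D1:**
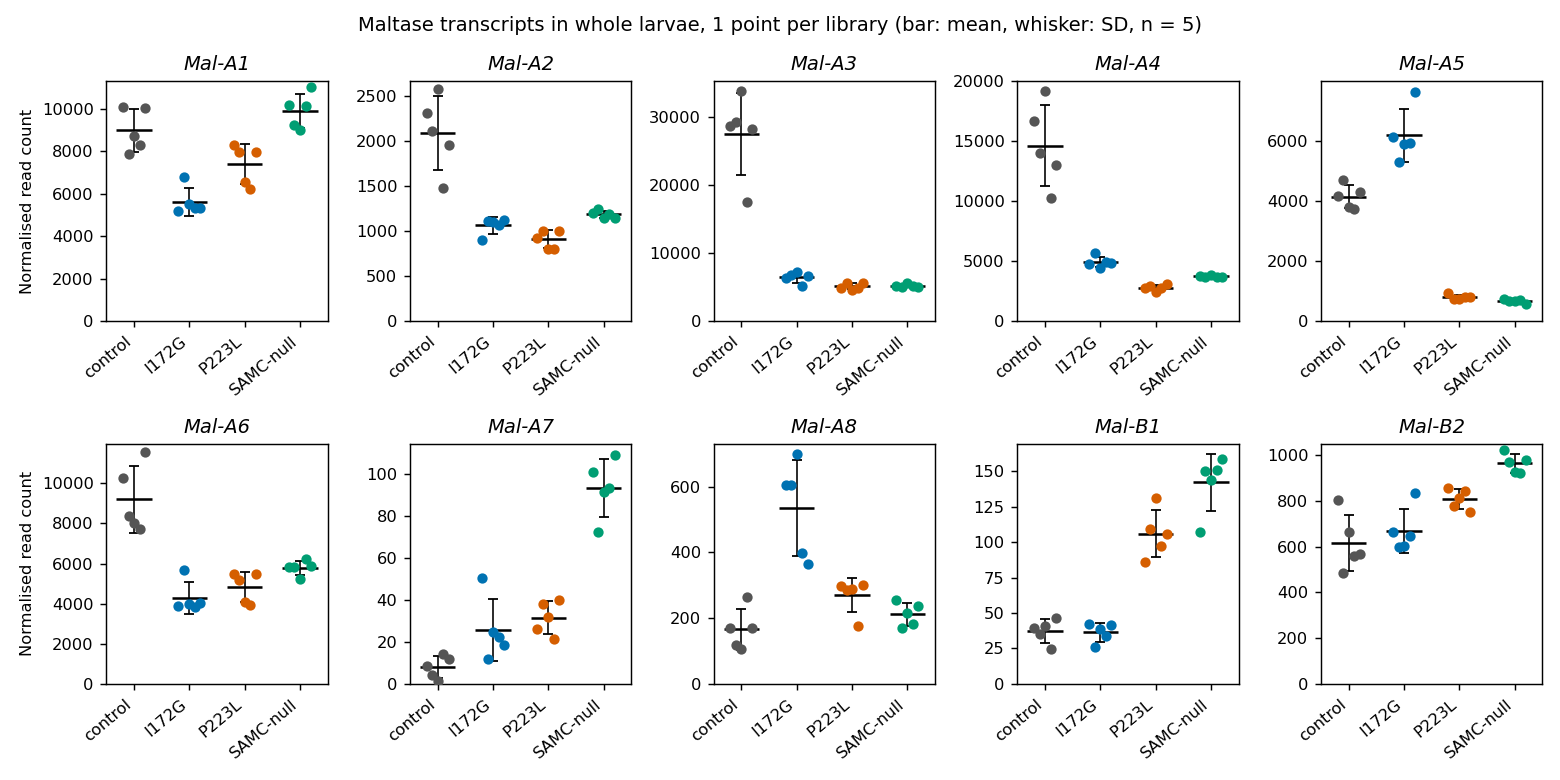
Normalised read counts (linear axis from 0, scale set per gene) of the 10 maltase genes in control, I172G, P223L and SAMC-null larvae, with 1 point per library, the mean as a bar and the SD as a whisker (n = 5). Mal-A3 and Mal-A4 were lower in all 3 lines, Mal-A5 was higher in I172G and lower in P223L and SAMC-null, and Mal-A7 reached 72.2 to 109 in SAMC-null.

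Mal-A3 (FBgn0002571; 2R, 8455909 to 8457892, minus strand), the maltase transcript with the highest mean level in control larvae, fell in all 3 lines. Control replicates 1 to 5 held 28739.9, 29317, 33883, 17575 and 28295 normalised counts of it. The I172G replicates held 6399, 6753, 7286, 5127 and 6641, the P223L replicates 4868, 5541, 4636, 4939.5 and 5635, and the SAMC-null replicates 5148, 5071, 5594, 5141 and 5093. Every mutant library lay below every control library, and control replicate 4 was the lowest control. Its log2 fold change against control was -2.07 ± 0.16 (SE) in I172G, a 4.21-fold lower level (limma adjusted p = 1.68e-05). In P223L it was -2.40 ± 0.14 (adjusted p = 1.07e-08), and in SAMC-null -2.37 ± 0.14 (adjusted p = 7.51e-09). Between P223L and SAMC-null the difference was -0.03 ± 0.05 with a 95% interval of -0.14 to 0.08 (adjusted p = 0.697).

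Mal-A4 (FBgn0033294; 2R, 8458815 to 8460884, plus strand) followed the same direction. Its control replicates held 16681, 14071, 19199.6, 10307 and 13014 normalised counts. The I172G replicates held 4737, 5654, 4461, 4955 and 4850.3, the P223L replicates 2758, 2965, 2453, 2739.5 and 3078, and the SAMC-null replicates 3786, 3656, 3879, 3660.1 and 3662. The 4 groups did not overlap, with control highest, then I172G, SAMC-null and P223L. The log2 fold changes against control were -1.54 ± 0.14 in I172G (adjusted p = 5.73e-05), -2.36 ± 0.14 in P223L (adjusted p = 8.78e-09) and -1.94 ± 0.13 in SAMC-null (adjusted p = 2.88e-08).

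Mal-A5 (FBgn0050359; 2R, 8462753 to 8465092, plus strand) moved in opposite directions in the mild and the severe lines. It was measured at 4176, 4712, 3808, 3735 and 4295 normalised counts in control and at 6140.3, 5306, 5883, 5926 and 7638 in I172G. P223L had 920.2, 737, 751, 787 and 798, and SAMC-null had 738, 675, 653, 699 and 585. All I172G libraries were above all control libraries, and all libraries of both severe lines were far below them. Against control it rose by 0.57 ± 0.10 in I172G (adjusted p = 0.00188). It fell by 2.37 ± 0.08 in P223L (adjusted p = 5.97e-11) and by 2.63 ± 0.08 in SAMC-null (adjusted p = 1.73e-11), both on the log2 scale. Of all genes tested, 12.8% in P223L and 12% in SAMC-null had a lower log2 fold change than Mal-A5. Compared directly, I172G held 7.7-fold more than P223L (log2 fold change 2.94 ± 0.09, adjusted p = 1.64e-11) and 9.17-fold more than SAMC-null (3.20 ± 0.09, adjusted p = 6.48e-12).

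Mal-A6 (FBgn0050360; 2R, 8465158 to 8467595) starts 65 bases beyond Mal-A5 on the same strand. It fell in I172G, from 9194 ± 1653 to 4278 ± 777 normalised counts (SD, n = 5; log2 fold change -1.10 ± 0.13, adjusted p = 0.000302), where Mal-A5 rose. In P223L it was at 4831 ± 754 (-0.93 ± 0.13, adjusted p = 2.71e-05) and in SAMC-null at 5794 ± 355 (-0.65 ± 0.10, adjusted p = 7.72e-05). All mutant libraries lay below all control libraries. With libraries rescaled to equal totals the SAMC-null call was lost (-0.05, adjusted p = 0.674). The ratio of Mal-A5 to Mal-A6 per kilobase, which no scaling of libraries can change, was 0.405 to 0.613 for control, 1.02 to 2.06 for the I172G line, 0.155 to 0.217 for the P223L line and 0.108 to 0.138 for SAMC-null. This pair was chosen after its values were seen, so the ratio is a description.

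Mal-A1 (FBgn0002570; 2R, 8449664 to 8451904) and Mal-A2 (FBgn0002569; 2R, 8453627 to 8455782) stand at the other end of the cluster. Mal-A1 dropped to 5623 ± 664 normalised counts in I172G, against 8997 ± 1018 in control (SD, n = 5; log2 fold change -0.68 ± 0.09, adjusted p = 0.000609), with the groups apart. In P223L it was at 7412 ± 932 (-0.28 ± 0.10, adjusted p = 0.0176), with groups that overlapped, and with equal totals this turned to 0.13 (adjusted p = 0.207). In SAMC-null it was at 9914 ± 810.0 (0.14 ± 0.08, 95% interval -0.03 to 0.32, adjusted p = 0.116). That value passed the test with equal totals (0.75, adjusted p = 9.9e-07) and without control replicate 1 (0.19, adjusted p = 0.0495). Mal-A1 thus had the smallest change of the Mal-A genes in both severe lines on the authors' scale.

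Mal-A2 fell in all 3 lines, from 2091 ± 411 normalised counts in control to 1064 ± 93.1 in the I172G line, 910.1 ± 99.8 in the P223L line and 1187 ± 40.8 in SAMC-null (SD, n = 5). Its log2 fold changes were -0.95 ± 0.13 (adjusted p = 0.000572), -1.18 ± 0.13 (adjusted p = 3.04e-06) and -0.79 ± 0.12 (adjusted p = 4.38e-05). No mutant library reached the lowest control library, replicate 4 at 1485. The SAMC-null call was lost with equal totals (-0.19, adjusted p = 0.129).

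The last 2 genes of the cluster, both weakly expressed in control larvae, rose in I172G and P223L, and Mal-A7 also in SAMC-null. Mal-A7 (FBgn0033296; 2R, 8468646 to 8471663, minus strand) was at 8.27, 4.41, 1.22, 14.4 and 11.7 normalised counts in control, so its control values rest on few reads. I172G had 50.4, 12.0, 24.6, 22.5 and 18.7, P223L 26.3, 38.0, 31.8, 21.5 and 40.1, and SAMC-null 101, 72.2, 91.4, 93.5 and 109. SAMC-null stood above every other group, P223L above control, and I172G overlapped with control. In SAMC-null the log2 fold change against control was 3.67 ± 0.45 (adjusted p = 7.64e-06) and in P223L 2.11 ± 0.47 (adjusted p = 0.00131). SAMC-null also exceeded P223L, whose log2 fold change against it was -1.56 ± 0.18 (adjusted p = 3.45e-06). The I172G value of 1.70 ± 0.55 (adjusted p = 0.0362) was lost on removing any 1 of 7 libraries, namely replicates 1, 2 and 3 of the control and 1, 3, 4 and 5 of the mild line (adjusted p = 0.0516 to 0.079).

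Mal-A8 (FBgn0033297; 2R, 8471954 to 8473961, plus strand) was at 171, 118, 105, 264 and 169 normalised counts in control and at 605, 606, 701, 397 and 366 in I172G. P223L had 299, 285, 288, 177 and 301, and SAMC-null 254, 170.2, 215, 182 and 237. Every I172G library was above every library of the other groups, and both severe lines overlapped with control, whose replicate 4 was its highest. In I172G it rose by 1.72 ± 0.26 on the log2 scale (adjusted p = 0.000991), a 3.29-fold higher level. In P223L it rose by 0.75 ± 0.23 (adjusted p = 0.0106). In SAMC-null the log2 fold change was 0.41 ± 0.22 with a 95% interval of -0.07 to 0.90 (adjusted p = 0.103). Without control replicate 4 that value was 0.60 and passed (adjusted p = 0.00663), as it did with equal totals (1.01, adjusted p = 0.000913). The neighbour mtt, which shares 6 exonic bases with Mal-A8, was at 62.6 ± 3.27 for control, 67.0 ± 14.0 for the I172G line, 558 ± 49.7 for the P223L line and 679 ± 18.9 for SAMC-null.

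**Figure D2:**
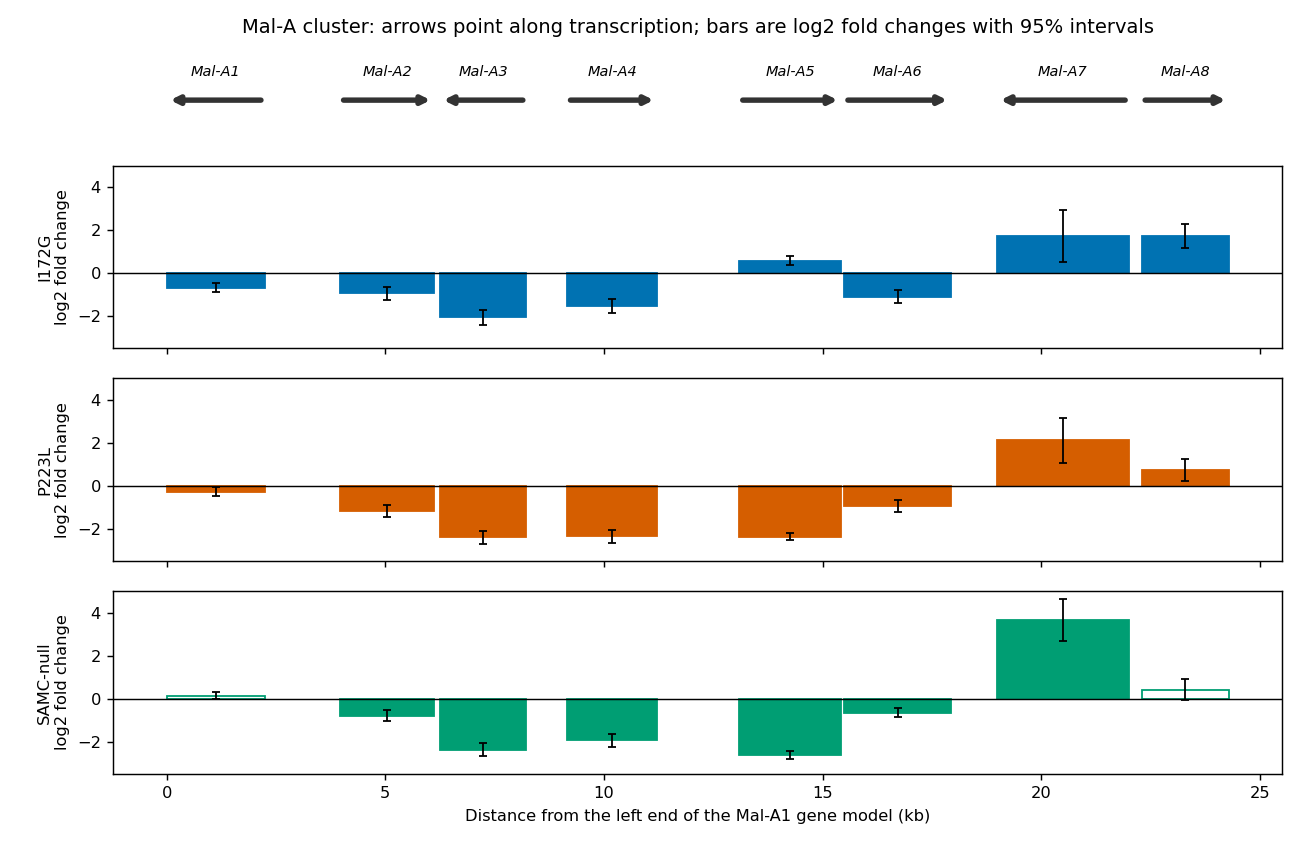
Map of the Mal-A cluster, to scale in kb from the left end of the Mal-A1 gene model, with arrows along the direction of transcription, above bars of the log2 fold change against control in I172G, P223L and SAMC-null (whiskers, 95% interval; open bars, adjusted p of 0.05 or more). Bars for Mal-A2, Mal-A3, Mal-A4 and Mal-A6 point down in all 3 lines and those for Mal-A7 and Mal-A8 point up, while Mal-A5 points up at 0.57 in I172G and down at -2.37 in P223L and -2.63 in SAMC-null. With libraries rescaled to equal totals these signs held, but Mal-A2 (-0.19) and Mal-A6 (-0.05) were no longer called in SAMC-null.

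The Mal-B genes were higher in the severe lines. Mal-B1 was at 39.6, 34.9, 40.9, 24.4 and 46.2 normalised counts in control and at 41.9, 25.8, 38.9, 33.4 and 41.7 in I172G. P223L had 86.2, 109, 131, 97.3 and 106, and SAMC-null 107, 150.0, 144, 151 and 159. The I172G libraries fell within the control range, and every library of the severe lines lay above both. The log2 fold change against control was 1.50 ± 0.18 in P223L (adjusted p = 8.15e-06) and 1.93 ± 0.18 in SAMC-null (adjusted p = 5.83e-07). In I172G it was -0.02 ± 0.22 with a 95% interval of -0.50 to 0.45 (adjusted p = 0.943).

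Mal-B2 was at 617 ± 123 normalised counts for control, 670.1 ± 95.5 for the I172G line, 809.6 ± 44.2 for the P223L line and 965 ± 42.0 for SAMC-null (SD, n = 5). It rose by 0.41 ± 0.11 in P223L (adjusted p = 0.00518), with groups that overlapped, and by 0.67 ± 0.11 in SAMC-null (adjusted p = 0.000126), with groups apart. The I172G value was 0.13 ± 0.13 with a 95% interval of -0.16 to 0.43 (adjusted p = 0.483). Pde1c, the gene on the other strand in which both Mal-B genes lie, was at 819 ± 52.9 for control, 864 ± 73.7 for the I172G line, 1977 ± 79.8 for the P223L line and 2242 ± 72.4 for SAMC-null. It rose by 1.27 ± 0.06 in P223L (adjusted p = 6.75e-10) and by 1.45 ± 0.05 in SAMC-null (adjusted p = 9.29e-11). Its part in the Mal-B values was not tested.

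**Figure D3:**
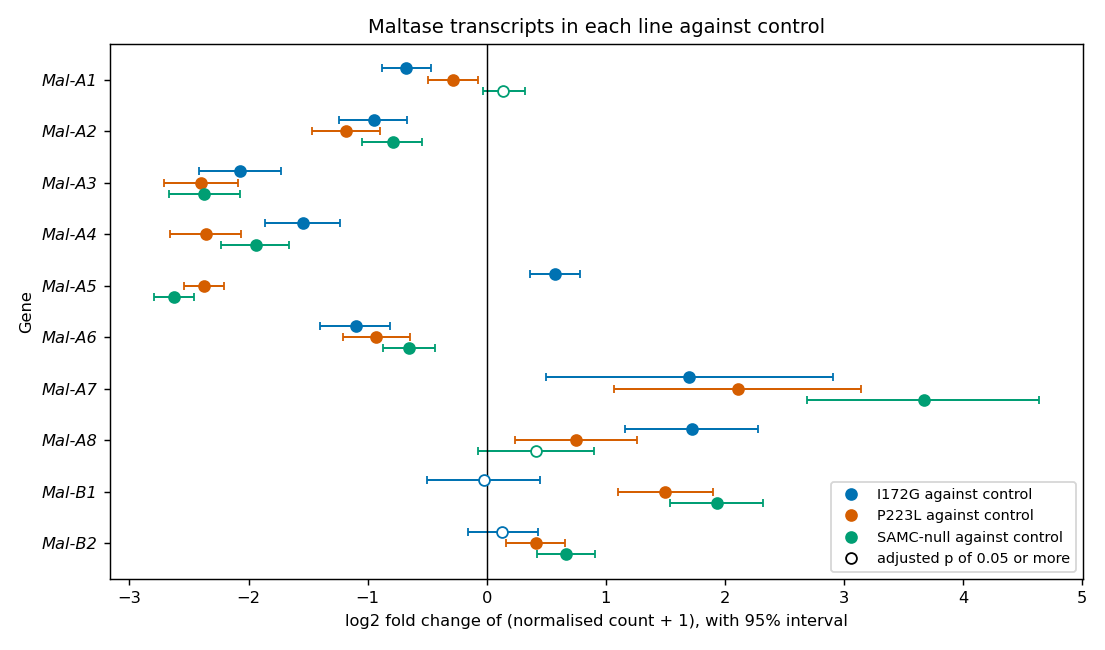
Log2 fold change of each maltase gene against control (horizontal axis, log2 of the normalised count + 1) in I172G, P223L and SAMC-null, with the 95% interval as a whisker; open points have an adjusted p of 0.05 or more. The 3 lines lie close together for Mal-A3, between -2.40 and -2.07, and far apart for Mal-A5, at 0.57, -2.37 and -2.63, and Mal-B1 is at -0.02 in the I172G line, 1.50 in the P223L line and 1.93 in SAMC-null.

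Counted over the family, I172G had 8 of 10 maltase genes called against control, 3 higher and 5 lower, where 32.2% of the 12253 genes tested were called, 14.6% higher and 17.6% lower. The I172G and control libraries did not overlap for 7 of the 10, against 18.1% of all genes. A call with a change of at least 2-fold was made for 5 of the 10, against 7.45% of all genes. The median log2 fold change of the 10 was -0.35, against -0.03 over all genes. All 10 genes passed the filter on low values, a level of 10 in at least 5 of the 10 libraries, in every comparison. Mal-A7 reached 10 in only 2 control libraries, so against control it passed through the mutant lines, where it is high, and its place among the higher calls rests on that. With 1 library left out at a time, 7 of 10 fits called 2 higher and 5 lower, without Mal-A7, and the other 3 called 3 higher and 5 lower. Over all genes these fits called 2740 to 5049, the most without control replicate 4.

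In P223L all 10 maltase genes were called, 4 higher and 6 lower, where 78.7% of the 12208 genes tested were called, 36.3% higher and 42.4% lower. In SAMC-null 8 were called, 3 higher and 5 lower, where 81.7% of the 12252 genes tested were called, 38.2% higher and 43.5% lower. The shares of maltases called in the severe lines are thus near those of all genes. Their libraries did not overlap with control for 7 of 10 genes in P223L and 8 of 10 in SAMC-null, against 68.2% and 71.9% of all genes. At least 2-fold calls were 6 of 10 against 36.8% in P223L and 5 of 10 against 40.5% in SAMC-null. The median of the 10 was -0.60 in P223L and -0.25 in SAMC-null, where both medians over all genes were -0.06. With libraries rescaled to equal totals the maltase calls were 3 higher and 5 lower in I172G (11.6% and 18.9% of all genes), 4 higher and 5 lower in P223L, and 5 higher and 3 lower in SAMC-null, and the median of the 10 became -0.19 in P223L and 0.35 in SAMC-null, so that its sign there turned. Over all genes that rescaling called 55% higher and 28.4% lower in P223L, and 60.8% higher and 26.5% lower in SAMC-null. Each of these comparisons uses the same control libraries.

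Fewer maltases passed a test against a log2 fold change of 1 in size. With limma's treat, 1 maltase passed in I172G (0.498% of all genes), 4 in P223L (28.4%) and 5 in SAMC-null (31.8%), each against control. Between the lines, 0 passed for P223L against SAMC-null (1.72% of all genes; 1 maltase at an unadjusted p under 0.05, and 8 by limma's test against no change), 2 for I172G against P223L (29.2%) and 3 for I172G against SAMC-null (32.4%). In the authors' deposited table, 2 maltases had an adjusted p under 0.05 in I172G (0.992% of all genes), 5 in P223L (27%) and 5 in SAMC-null (29.7%). Those 2 of I172G were Mal-A3 and Mal-A4, and both severe lines had Mal-A3, Mal-A4, Mal-A5, Mal-A7 and Mal-B1 in the authors' deposited table.

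The mutant lines were also compared directly. Between the severe lines, 8 of 10 maltases were called, 1 higher and 7 lower in P223L than in SAMC-null, where 47.4% of genes were called, 22.4% higher and 25.1% lower. The libraries did not overlap for 5 of the 10, against 33.9% of all genes. Apart from Mal-A7, these differences were under 2-fold. Mal-A4 was lower in P223L by 0.42 ± 0.05 on the log2 scale (adjusted p = 7.2e-06), Mal-A1 by 0.43 ± 0.08 (adjusted p = 0.000316) and Mal-A2 by 0.39 ± 0.06 (adjusted p = 0.000138). Mal-A5 was higher in P223L by 0.25 ± 0.07 (adjusted p = 0.00696), a call lost with equal totals (0.06, adjusted p = 0.459). With all 4 groups in 1 fit the calls fell to 5, without those of Mal-A6, Mal-B1 and Mal-B2 (adjusted p = 0.0923, 0.0633 and 0.0679), and with no filter on low values the Mal-A6 call was lost (adjusted p = 0.0663). Mal-A8, at 0.34 ± 0.15 (adjusted p = 0.068), passed without P223L replicate 4 (0.48, adjusted p = 0.00199) or SAMC-null replicate 1 (0.41, adjusted p = 0.0353). A replicate block in the fit also made it pass (adjusted p = 0.0127). With equal totals Mal-A3 passed as lower in P223L (-0.22, adjusted p = 0.00359), and 0 maltases were higher and 8 lower, where 10.3% of all genes were higher and 51.3% lower on that scale.

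I172G differed from P223L in 8 of 10 maltases, 5 higher and 3 lower, where 80.8% of genes were called, 42.9% higher and 38% lower. The libraries lay apart for 4 of the 10, against 70.6% of all genes. It differed from SAMC-null in all 10, 4 higher and 6 lower, where 82.8% were called, 43.1% higher and 39.7% lower, and lay apart from it for 8 of the 10, against 73.5% of all genes. With equal totals the splits were 3 higher and 6 lower against P223L and 2 higher and 8 lower against SAMC-null. On that scale 27.9% of all genes were higher and 56.7% lower against P223L, and 25.3% higher and 62.5% lower against SAMC-null, so the splits of all genes moved the same way. Besides Mal-A5, I172G was above both severe lines in Mal-A8, by 0.97 ± 0.20 against P223L (adjusted p = 0.000601) and 1.30 ± 0.18 against SAMC-null (adjusted p = 2.43e-05). It was below both in Mal-B1, by log2 fold changes of -1.53 ± 0.17 (adjusted p = 2.36e-06) and -1.95 ± 0.16 (adjusted p = 1.55e-07). Mal-A3 was higher in I172G than in P223L (0.32 ± 0.09, adjusted p = 0.00449) and SAMC-null (0.30 ± 0.08, adjusted p = 0.00364), but with equal totals it was lower, at -0.12 (adjusted p = 0.243) and -0.34 (adjusted p = 0.00139). Mal-A4 was higher in I172G than in SAMC-null by 0.40 ± 0.06 (adjusted p = 2.44e-05), and with equal totals lower, at -0.23 (adjusted p = 0.00103). Mal-A2 was higher in I172G than in P223L by 0.23 ± 0.08 (adjusted p = 0.0252), and with equal totals lower, at -0.21 (adjusted p = 0.027). That call was also lost without I172G replicate 2 or 3 or P223L replicate 3 or 4 (adjusted p = 0.0545, 0.054, 0.0675 and 0.0674), and with all 4 groups in 1 fit (adjusted p = 0.0591). The Mal-A2 difference from SAMC-null, -0.16 ± 0.06 (adjusted p = 0.0281), was lost without SAMC-null replicate 1 or 2 (adjusted p = 0.054 and 0.068) and with all 4 groups in 1 fit (adjusted p = 0.171). Against P223L, Mal-A6 (-0.18 ± 0.12, adjusted p = 0.206) passed without I172G replicate 2 (-0.28, adjusted p = 0.0215), and Mal-A7 (-0.40 ± 0.33, adjusted p = 0.268) without I172G replicate 1 (-0.68, adjusted p = 0.0378). Both also passed with equal totals, Mal-A6 at -0.62 (adjusted p = 0.000242) and Mal-A7 at -0.83 (adjusted p = 0.0368).

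The make-up of the family, given as shares within a library that no scaling of libraries can change, differed between the groups. Mal-A3 held 37.1 to 45.7% of the summed level per kilobase in control libraries, 20.3 to 26.5% in the I172G line, 21.4 to 25.7% in the P223L line and 18.9 to 22.3% in SAMC-null. Mal-A1 held 11.6 to 17.2% for control, 18.3 to 22.1% for the I172G line, 31.9 to 35.8% for the P223L line and 35.2 to 40.2% for SAMC-null. Mal-A5 held 4.38 to 6.73% for control, 15.0 to 22.9% for the I172G line, 2.74 to 3.49% for the P223L line and 1.85 to 2.38% for SAMC-null. Mal-A3 was the leading transcript per kilobase in control. In I172G the library ranges of Mal-A3, Mal-A1, Mal-A5 and Mal-A4, at means of 3588, 3079, 2939 and 2761 counts per kilobase, overlapped from each to the next. Mal-A1 led in P223L at 4059 ± 510.5 and in SAMC-null at 5429.6 ± 444, apart from Mal-A3 at 2855 ± 245 and 2902 ± 121.

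**Figure D4:**
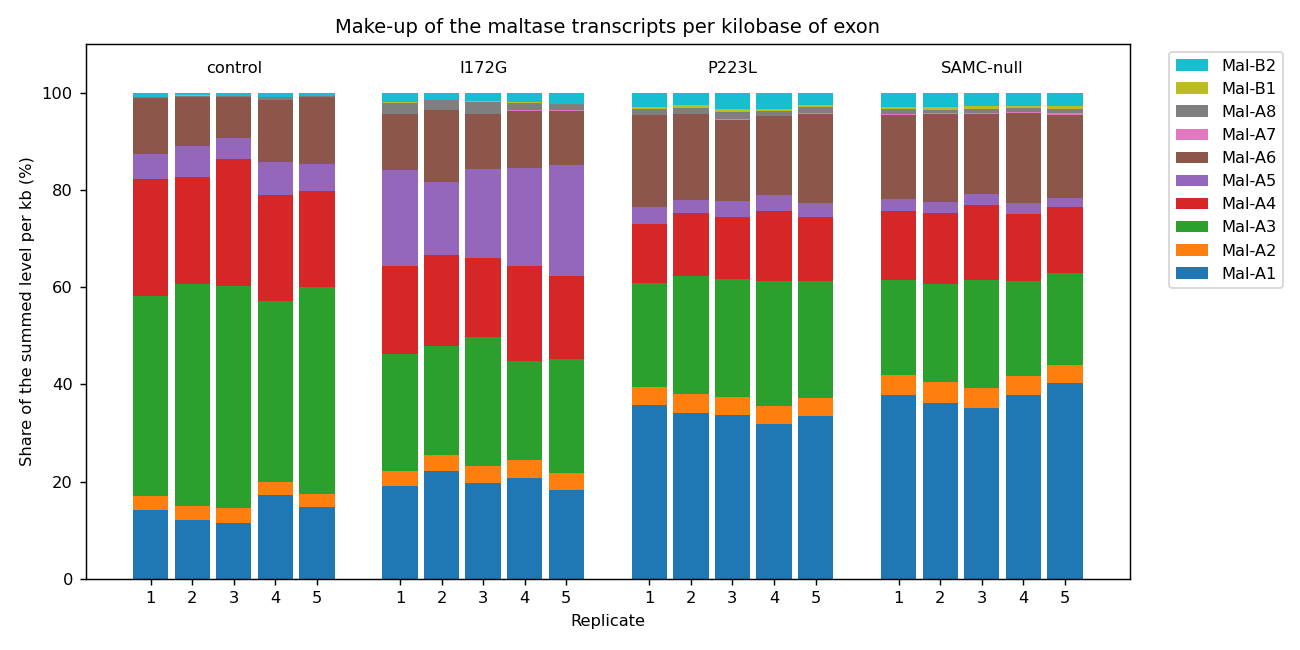
Share (%) of each maltase gene in the summed maltase level per kilobase of exon, with 1 stacked bar per library and the 5 replicates of control, I172G, P223L and SAMC-null side by side. The Mal-A3 share is 37.1 to 45.7% in control and at most 26.5% elsewhere, the Mal-A5 share is 15.0 to 22.9% in I172G, and the Mal-A1 share is 31.9 to 40.2% in the severe lines.

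The spread between libraries was not tested. The coefficient of variation of the 6 abundant genes, Mal-A1 to Mal-A6, ran from 9.55 to 23.3% for control, 8.75 to 18.2% for the I172G line, 8.57 to 15.6% for the P223L line and 2.68 to 8.49% for SAMC-null. For Mal-A5 the control and SAMC-null values lay close, at 9.55 and 8.49%. Control replicate 4 was the lowest control for Mal-A2, Mal-A3, Mal-A4, Mal-A5, Mal-A6 and Mal-B1, and the highest for Mal-A7 and Mal-A8. For Mal-A3 it was at 17575 against 28295 to 33883 in the other controls, and for Mal-A8 at 264 against 105 to 171. Without it, 8 maltases were called in the I172G line, 10 in the P223L line and 9 in SAMC-null, the additional call being Mal-A8. Over all genes 5049 of 12201, 8788 of 11296 and 9173 of 11305 were then called.

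Other enzymes of sugar digestion were counted beside the maltases. The counts of this and the following lists stand beside the shares of all genes given above, which were 14.6% higher and 17.6% lower in I172G, 36.3% and 42.4% in P223L, and 38.2% and 43.5% in SAMC-null. With most genes called in the severe lines, a count of calls there is no result about a list. Of 5 genes, 4 fell in the I172G line, 4 in the P223L line and 3 in SAMC-null, and none rose (median log2 fold changes of -1.64, -1.64 and -1.55). With equal totals, 1 of them rose in P223L and 2 in SAMC-null, beside 4 and 3 that fell. The amylase gene Amy-p, whose product cuts starch, had 33525 ± 11742 normalised counts in control against 7105 ± 3064 in the I172G line, 10202 ± 858 in the P223L line and 10383 ± 395 in SAMC-null (SD, n = 5). Its log2 fold changes were -2.24 ± 0.30 (adjusted p = 0.000505), -1.64 ± 0.22 (adjusted p = 1.67e-05) and -1.61 ± 0.21 (adjusted p = 1.73e-05). Amy-d had -2.36 ± 0.35, -2.14 ± 0.24 and -2.20 ± 0.24, but it is a near-identical copy of Amy-p, so the split of reads between them is uncertain. The related gene Amyrel did not pass in I172G (-0.77 ± 0.30, adjusted p = 0.0708) and fell in P223L (-1.65 ± 0.23, adjusted p = 3.01e-05) and SAMC-null (-1.55 ± 0.23, adjusted p = 3.82e-05).

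Genes that act after digestion, or that respond to sugar, did not share 1 direction. Of 9 sugar transporters, 1 rose and 4 fell in I172G. Of the 8 tested in the severe lines, 3 rose and 5 fell in P223L, and 3 rose and 4 fell in SAMC-null. With equal totals 3 rose and 3 fell in each severe line. The sugar transporter gene sut1 fell in all 3 lines, from 4733 ± 658 to 2512 ± 269.5, 1809 ± 103 and 1549 ± 54.8 normalised counts, and sut4 was at 182 ± 58.8 in control, 75.5 ± 14.8 in I172G and at most 8.51 in any severe library. Glut1, a glucose transporter, was at 661 ± 57.7 in control and rose in P223L (0.81 ± 0.08, adjusted p = 1.72e-06) and SAMC-null (0.98 ± 0.07, adjusted p = 2.65e-08).

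Among 10 regulators of the sugar response, 4 rose and 0 fell in I172G, 7 rose and 1 fell in P223L, and 6 rose and 2 fell in SAMC-null, where equal totals gave 8 rising and 0 falling. The nuclear receptor gene Hr38 fell in P223L (-1.65 ± 0.12, adjusted p = 4.64e-08) and SAMC-null (-0.86 ± 0.15, adjusted p = 0.000155), the SAMC-null call being lost with equal totals (-0.26, adjusted p = 0.136), and it was at 0.05 ± 0.14 in I172G (adjusted p = 0.815). Akh, the gene of the hormone that mobilises stored sugar and fat, rose in SAMC-null (1.77 ± 0.19, adjusted p = 2.61e-06). In P223L it was at 0.54 ± 0.24 (adjusted p = 0.0537), which passed with equal totals (0.94, adjusted p = 0.00252), and in I172G at -0.05 ± 0.21 (adjusted p = 0.875). Mlx (bigmax in the files), the partner of the sugar sensor Mondo, rose by 0.55 ± 0.11 (adjusted p = 0.00442), 0.92 ± 0.09 (adjusted p = 8.05e-07) and 1.28 ± 0.09 (adjusted p = 2.94e-08). The gene of the Activin ligand Dawdle, daw, named here after its values were seen, ranged from 592 to 1894 normalised counts for control, 2103 to 2348 for the I172G line, 2796 to 2963 for the P223L line and 1969.9 to 2304 for SAMC-null. Its log2 fold changes were 0.99 ± 0.24 (adjusted p = 0.012), 1.38 ± 0.24 (adjusted p = 0.000164) and 0.96 ± 0.24 (adjusted p = 0.00264). All mutant libraries lay above all control libraries for daw, whose part in the maltase values was not tested. Of 7 matched genes of glycogen, trehalose and hexokinase, 0 rose and 4 fell in I172G, 1 rose and 4 fell in P223L, and 1 rose and 6 fell in SAMC-null. With equal totals this list had 3 rising and 4 falling in P223L and 2 rising and 4 falling in SAMC-null. The glycogen branching enzyme gene AGBE had log2 fold changes of -0.49 ± 0.12 (adjusted p = 0.0122), -2.53 ± 0.10 (adjusted p = 2.55e-10) and -2.79 ± 0.10 (adjusted p = 7.26e-11). The glycogen phosphorylase gene GlyP fell in P223L (-1.64 ± 0.09, adjusted p = 5.2e-09) and SAMC-null (-2.23 ± 0.09, adjusted p = 2.39e-10), as did the glycogen synthase gene GlyS (-1.06 ± 0.05 and -1.33 ± 0.05, adjusted p = 2.64e-09 and 1.55e-10).

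Markers of the midgut were summed in each library. All 8 were detected in every group, and their summed counts were 17467 to 20365 per control library, 11917 to 15305 in the I172G line, 18691 to 20643 in the P223L line and 17906 to 18370.2 in SAMC-null. In I172G 4 of the 8 fell and 1 rose, in P223L 2 fell and 5 rose, and in SAMC-null 2 fell and 4 rose. With equal totals, 1 fell and 7 rose in P223L, and 1 fell and 6 rose in SAMC-null. The enterocyte gene mex1 was at 1058 ± 175 for control, 1021 ± 98.8 for the I172G line, 2701 ± 205 for the P223L line and 2452 ± 98.6 for SAMC-null, and nub, an enterocyte transcription factor, rose in P223L (2.02 ± 0.10, adjusted p = 2.65e-09) and SAMC-null (2.17 ± 0.10, adjusted p = 7.97e-10). Peritrophin-A, a protein of the gut's inner lining, had log2 fold changes of -2.77 ± 0.12 in P223L (adjusted p = 8.55e-10) and -3.65 ± 0.12 in SAMC-null (adjusted p = 6.92e-11). The midgut marker sums of both severe lines overlapped with control, but single markers went in opposite directions there, so the sums do not measure the share of midgut. In I172G the marker sums lay below control. Most of that difference was in Npc1b, singled out after its values were seen, at 6627 ± 1297 in control and 2612 ± 588 in I172G (-1.35 ± 0.16, adjusted p = 0.000277). Vha100-4 (-0.73 ± 0.07, adjusted p = 4.76e-05), Myo31DF (-0.28 ± 0.08, adjusted p = 0.0263) and GATAe (-0.27 ± 0.07, adjusted p = 0.0171) also fell in I172G. The value of lab (-0.40 ± 0.17, adjusted p = 0.0848) did not pass. In I172G mex1 (-0.04 ± 0.11, adjusted p = 0.794) and nub (-0.32 ± 0.11, adjusted p = 0.0522) did not pass, nub passing with equal totals (-0.35, adjusted p = 0.0445), and Peritrophin-A rose (0.43 ± 0.14, adjusted p = 0.0378). The part of the midgut markers in the maltase values was not tested.

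Markers of other tissues differed more widely between the groups, and their part in the maltase values was not tested. Whether larvae of the same age had reached the same stage in all groups was not tested either. Of 5 fat body markers, 3 rose in I172G and all fell in both severe lines, and their sums were 2360795 to 2945179.7 normalised counts per library in control and 3054564 to 3363936 in I172G, and at most 169 in the severe lines, where Fbp1 was under 3 in every SAMC-null library. All 4 salivary gland markers rose in I172G and fell in both severe lines, Sgs3 being under 3 in every SAMC-null library, and they summed to 2976 to 23915 in control, 21178 to 60780.3 in I172G and at most 173 in the severe lines. Of 4 markers of the Malpighian tubules, the excretory organs, 1 fell in I172G, and 1 rose and 2 fell in each severe line (with equal totals 2 rose and 2 fell in P223L, and 2 rose and 1 fell in SAMC-null). They summed to 8812 to 12113 for control, 8626 to 10036 for the I172G line, 2079 to 2159 for the P223L line and 5697 to 6354 for SAMC-null.

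The genes nearest in pattern were sought over the 20 libraries, which fall into 4 groups, with Pearson's r on log2(value + 1), which takes in differences between groups and within them. Among 12639 genes, those most like the summed Mal-A level were CG8093 and CG7916 (r = 0.96 each), CG2772 (0.957), CG31089 (0.953) and CG10062 (0.946). CG8093, for instance, averaged 13275 normalised counts in control, 3489 in the I172G line, 1738 in the P223L line and 2943 in SAMC-null. Those most like the summed Mal-B level were Adar (0.951), CG43736 (0.947), Rip11 and l(1)G0289 (0.945 each) and Ehbp1 (0.944). Adar averaged 976, 1033, 1480.1 and 1869. Within the family, Mal-A3 and Mal-A4 were most alike (0.967), while the member most like Mal-A8 was Mal-A5, with an r of 0.302.

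Genes around the Mal-A cluster were also measured. Cyp4e1, next to Mal-A1, was at 60.5 ± 5.42 normalised counts for control, 102 ± 20.6 in the I172G line, 24.2 ± 6.32 in the P223L line and 39.1 ± 5.87 in SAMC-null. Cyp4e2, 2499 bases away from the cluster, was at 11265 ± 967, 9456 ± 951, 3191 ± 94.1 and 2559.6 ± 70.3. Cyp4ad1, 6857 bases away, fell in P223L (-2.04 ± 0.12, adjusted p = 1.24e-08) and SAMC-null (-2.93 ± 0.12, adjusted p = 3.72e-10). In I172G it did not pass (0.24 ± 0.12, adjusted p = 0.144). Cyp4e1 and Cyp4e2 are cytochrome P450 genes, and both fell in P223L and SAMC-null with adjusted p of 5.81e-05 and 0.00152 for Cyp4e1 and 6.16e-11 and 9.82e-12 for Cyp4e2. In I172G Cyp4e1 rose (0.73 ± 0.16, adjusted p = 0.00775) and Cyp4e2 fell (-0.25 ± 0.08, adjusted p = 0.0361). The SAMC-null call of Cyp4e1 was lost with equal totals (-0.04, adjusted p = 0.826).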

How the data were processed

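Per the labels, RNA was sequenced as 75-base read pairs. The tools named in the submitters' processing notes are Salmon 0.11.3 and DESeq2 1.26.0, with the build BDGP6. The deposited signal columns hold normalised read counts on 1 common scale (14081 genes, 20 libraries), and no raw counts were used here. The authors' deposited log2 fold changes, p-values and scores (standard error, statistic and weight) served only as an alternative. Exon lengths and coordinates came from Ensembl release 115 (BDGP 6.54).

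The model for each of 6 comparisons was limma's (version 3.58.1, R version 4.3.3; intensity trend, two-sided) on log2(value + 1) of 10 libraries. It took in genes that reached 10 in 5 or more of them, and was tested on simulated data. The adjusted p came from limma over all genes tested. Tables and figures were made in Python 3.11.15 (numpy 2.4.6, pandas 2.3.3, matplotlib 3.10.9). Named were all members, up to 3 genes per list by adjusted p, and the 5 genes most like each summed level. Also named from the lists, outside that rule, were daw and the midgut markers Npc1b, Vha100-4, Myo31DF, GATAe and lab. The members and lists were chosen with earlier results of these data known. One further gene planned for the glycogen list is not reported here. No sequences are shown. Summed normalised counts, from 22092107 to 36610401 per library, stand in for depth. They exceed the 3M reads per sample that the labels state, and raw depth is unknown. Equal replicate numbers did not deviate together (r from -0.21 to 0.1 between same-numbered libraries), so they were not taken as pairs. Alternatives were other pseudocounts, filters and scalings, left-out libraries, a replicate block, a fit of all groups, and tests against a minimum change. Equal totals for the other lists and neighbours were added after seeing the data.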

Additional observations from a re-analysis of the deposited data

Results flagged for a closer look

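Among 40 groups of 5 values, 6 held a library far from the rest of its group by Dixon's criterion, where chance flags about 1 in 20. Mal-A1 and Mal-A6 were both high in I172G replicate 2, at 6788 normalised counts against 5169 to 5532 in the other I172G libraries and at 5659 against 3812 to 4050.0. Mal-A2 was low in I172G replicate 1, at 902 against 1071 to 1124. Mal-B2 was high in I172G replicate 5, at 834 against 599 to 665. Mal-A3 was high in SAMC-null replicate 3, at 5594 against 5071 to 5148, and Mal-A8 was low in P223L replicate 4, at 177 against 285 to 301.

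Mal-A5 had effects of opposite direction in the lines, 0.57 in I172G and -2.37 and -2.63 in P223L and SAMC-null (log2 fold change against control). The difference itself was tested by comparing the lines directly, with log2 fold changes of 2.94 against P223L (limma adjusted p = 1.64e-11) and 3.20 against SAMC-null (limma adjusted p = 6.48e-12). Genes were listed here only where that comparison was called, so it is no separate check of the rise in I172G. That rise did not pass limma's treat against a log2 fold change of 1.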

How the results depend on the processing

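Pseudocounts of 0.5 and 4 and median-ratio rescaling changed the direction or call of no maltase in any of the 6 comparisons. A filter of 50 left 4 of 60 values untested (Mal-A7 in 3 comparisons, Mal-B1 in 1), and no filter ended 1 call (Mal-A6 between the severe lines). Tests against an absolute log2 fold change of 1 call fewer genes by construction: limma's treat called 1 maltase in I172G (0.498% of all genes), 4 in P223L (28.4%) and 5 in SAMC-null (31.8%) against control, 0 between P223L and SAMC-null (1.72%; 1 at an unadjusted p under 0.05), 2 between I172G and P223L (29.2%) and 3 between I172G and SAMC-null (32.4%). The authors' deposited adjusted p called 2 (0.992%), 5 (27%) and 5 (29.7%) against control. With all 4 groups in 1 fit, the Mal-A2 call between I172G and P223L was lost (adjusted p = 0.0591) and 5 were called between P223L and SAMC-null, and the cause was not tested. Left-out libraries gave 7 to 8 calls in I172G, 10 in P223L and 8 to 9 in SAMC-null against control, and turned the sign of 2 values that were not called: Mal-B1 in I172G (-0.16 to 0.09) and Mal-A3 between P223L and SAMC-null (-0.06 to 0.01). Equal totals turned 5 values, Mal-A1 in P223L (0.13), Mal-A2 (-0.21) and Mal-A3 (-0.12) between I172G and P223L, and Mal-A3 (-0.34) and Mal-A4 (-0.23) between I172G and SAMC-null. With replicate number as a block (replicate block), 7, 10 and 9 maltases were called against control: Mal-A7 in I172G was lost (adjusted p = 0.0521) and Mal-A1 in SAMC-null gained (adjusted p = 0.0382). Between P223L and SAMC-null the replicate block gave 9, with Mal-A8 gained (adjusted p = 0.0127), and it changed no other call.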
